A study of Mus musculus with 6 samples.

Results

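The keratins form the intermediate filaments of epithelial cells, and they were followed here in whole skin of mouse embryos at E17.5 (embryonic day 17.5) with and without Tie1. Members were taken by symbol, as every gene named Krt followed by a number and, in some, a letter a or b. This gave 53 keratins among the 19131 genes of the files, of which 36 reached 10 or more reads in 3 or more of the 6 libraries and were tested. Tie1 encodes an endothelial receptor tyrosine kinase, and the study compared 3 libraries of Tie1 knockout skin, whose titles carry the name Tie1ECDKO, with 3 of control skin, named Tie1ECDWT, all on the C57BL/6N background and with no treatment given. The letters ECD, the cells in which Tie1 was deleted, the body site of the skin and whether each library is 1 embryo or pooled skin are not explained in the sources used here. The p-values therefore measure the spread between these samples only, which may in part be technical. RNA was purified with oligo(dT) beads from whole skin, so that fewer cells of a type and less keratin RNA per cell cannot be told apart.

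As background, a keratin filament is built from pairs of a smaller, acidic type I chain and a larger, basic type II chain, and each layer of the epidermis and hair follicle makes its own pair. Basal keratinocytes make Krt5 with Krt14, the layers above them make Krt1 with Krt10, and stressed, wounded or hyperproliferative epidermis makes Krt6a, Krt6b and Krt16. In the hair follicle the inner root sheath, which moulds the growing hair, makes Krt25 to Krt28 with Krt71 to Krt74, and the hair shaft makes Krt31 to Krt36 with Krt81 to Krt86. At this stage the first hair follicles of the back are growing down and begin to form these layers.

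The keratin genes lie in 2 clusters. The tables place 27 of them on chromosome 11, between 99232761 and 100269951, and 26 on chromosome 15, between 101348315 and 102032026 (GRCm38.p6). All 53 matched the RefSeq gene table by gene number. Chromosome 11 holds type I genes, and the type I gene Krt18 is the exception that lies beside its type II partner Krt8 on chromosome 15. The inner root sheath genes sit together: Krt25, Krt26, Krt27 and Krt28 occupy 59.4 kb of chromosome 11 (99315516 to 99374903), and Krt71, Krt72 and Krt73 occupy 68.4 kb of chromosome 15 (101733949 to 101802360). The listed keratins Krt74 and Krt85 were not analysed here.

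The 5 inner root sheath genes that were tested varied in nearly the same order over the libraries, as described below, and their upstream sequences are shown for that reason. Each line gives the 100 bases before the RefSeq transcription start on the gene's strand, 5′ to 3′ (RefSeq, GRCm38.p6, minus strand for all 5), with TATAAA and, in Krt28, TCAAAG in capitals. The regions are chr11:99322952-99323051, chr11:99351119-99351218 and chr11:99374904-99375003 for the type I genes and chr15:101743098-101743197 and chr15:101802361-101802460 for the type II genes.
Krt25: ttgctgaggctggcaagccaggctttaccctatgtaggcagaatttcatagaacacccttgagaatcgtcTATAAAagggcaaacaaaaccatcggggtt
Krt27: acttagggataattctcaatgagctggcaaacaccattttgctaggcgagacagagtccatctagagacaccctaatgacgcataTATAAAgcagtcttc
Krt28: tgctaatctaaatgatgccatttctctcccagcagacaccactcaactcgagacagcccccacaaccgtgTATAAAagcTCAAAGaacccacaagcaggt
Krt71: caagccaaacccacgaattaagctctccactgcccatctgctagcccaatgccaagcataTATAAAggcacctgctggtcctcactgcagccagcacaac
Krt73: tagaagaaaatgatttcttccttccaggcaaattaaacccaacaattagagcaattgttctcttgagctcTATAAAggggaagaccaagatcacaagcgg
All 5 carry TATAAA, the core letters of a TATA box, which begins 30 bases before the start in Krt25, Krt28 and Krt73, 40 bases before it in Krt71 and 15 bases before it in Krt27. Over the 36 keratins with an entry in the RefSeq promoter table, 15 (41.7%) had TATAAA on the gene's strand in the 50 bases before the start, against 863 of 32851 promoters of all genes (2.63%). By class it was present in 6 of 7 inner root sheath promoters and in 4 of 7 hair shaft promoters. The letters CTTTGA or their reverse complement TCAAAG, part of the sequence bound by LEF and TCF factors, were found on either strand in the 250 bases before the start in 9 of 36 keratin promoters (25.0%), in 4 of 7 hair shaft promoters and in 1 of 7 inner root sheath promoters, against 13.8% of all promoters. The 2 motifs did not overlap in Krt28. A match describes these letters only.

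The libraries held 19826856 to 20591164 estimated reads, so that 1 read counted about equally in each, and 3 reads, taken as the floor, corresponded to 0.147 to 0.155 CPM, the count scaled to a common library size. Levels below are CPM scaled by TMM, a normalization of library size. Tie1 stood at 4.33, 2.63 and 2.26 CPM in the knockouts and 58.5, 50.7 and 59.98 CPM in the controls (log2 fold change −4.20, SE 0.228, adjusted p in edgeR = 0.00384), and each library thus matched its label. Keratins took 2.58, 2.39 and 2.82% of the reads in knockout 1, 2 and 3 and 1.75, 3.49 and 2.81% in control 1, 2 and 3. Control 1 had the lowest and control 2 the highest share, with the knockouts between them.

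Of the 36 keratins tested, 0 were called changed by edgeR's quasi-likelihood test, which called 24 of all 15086 genes at an adjusted p under 0.05 (0.159%). DESeq2 called 1 keratin, Krt6b, and gave no adjusted p for Krt18. An unadjusted p under 0.05 was reached by 6 keratins, Krt6a, Krt6b, Krt19 and Krt78 higher in the knockout and Krt12 and Krt20 lower, against 7.40% of all genes. The groups did not overlap in 4 keratins, Krt6a and Krt78 higher and Krt12 and Krt20 lower, against 13.8% of all genes. The share of keratins that did not overlap was thus near that of all genes. Krt20 counts in both numbers but reached the read minimum through the controls alone, so that it had to differ. The median log2 fold change was −0.025 over the 36 keratins, 16 positive and 20 negative, and 0.0038 over all genes.

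The keratins varied widely between libraries of the same genotype. The SD of log2 CPM within groups had a median of 1.25 over the keratins and 0.140 over all genes tested, and all 36 keratins lay above that median. Low reads alone raise this SD, so genes were also compared within their own level. Above the 95th percentile of all genes at their level lay 3 of 6 keratins below a mean of 1 CPM, where Krt222 and Krt20 were not above the median, and 4 of 6 at 1 to 10 CPM. Of 12 keratins at a mean of 10 to 100 CPM, 11 lay above the 95th percentile of the 8763 genes at that level, as did 8 of 8 keratins at 100 to 1000 CPM. Of the 4 keratins above 1000 CPM (Krt1, Krt10, Krt5 and Krt14), 0 lay above the 95th percentile, though all 4 were above the median of the 87 genes at that level.

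**Figure D1:**
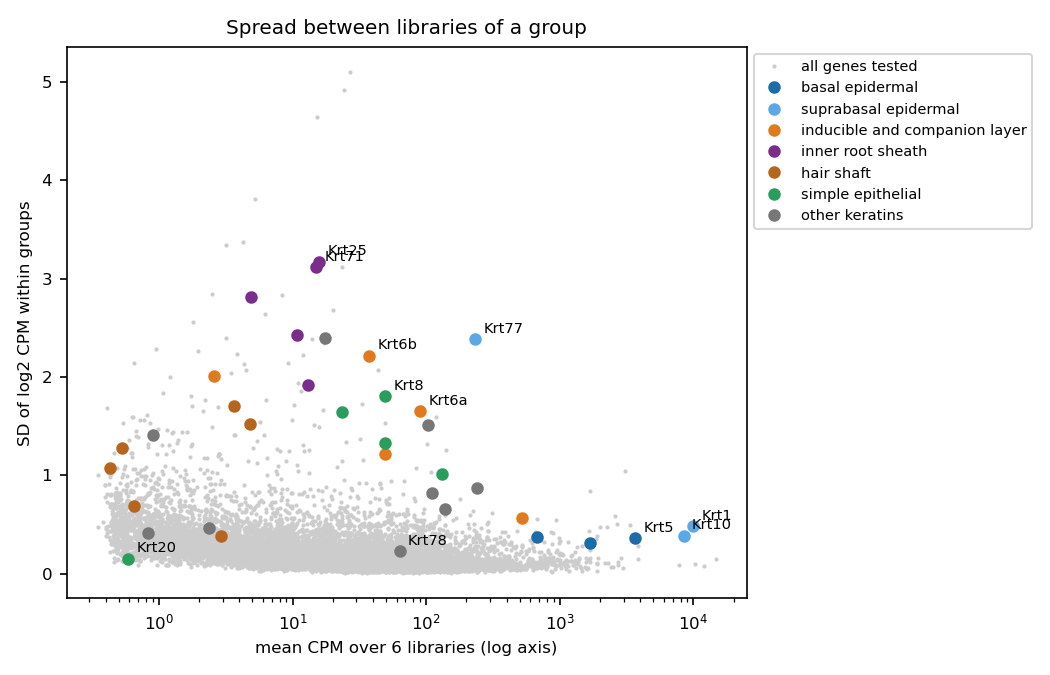
SD of log2 CPM within groups (vertical axis) against mean CPM over the 6 libraries (horizontal log axis), for all 15086 genes tested (grey) and 36 keratins (coloured by class). The inner root sheath keratins reach an SD of 3.17, while the abundant epidermal keratins Krt1, Krt10 and Krt5 lie between 0.36 and 0.48.

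In 9 keratins a single library stood more than 1 log2 unit above the next, against 1.21% of all genes. The threshold was chosen after the values were seen. Knockout 1 stood apart in Krt77, Krt80 and Krt34, knockout 2 in Krt8, Krt18 and Krt19, knockout 3 in Krt6b and Krt16, and control 3 in Krt71. In 17 of 36 keratins the 2 lowest libraries were knockout 1 and control 1, a pairing that held in 13.2% of all genes and was also noticed after the values were seen. Among these 17 were all 3 basal keratins, all 5 inner root sheath keratins and 4 of 6 hair shaft keratins.

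**Figure D2:**
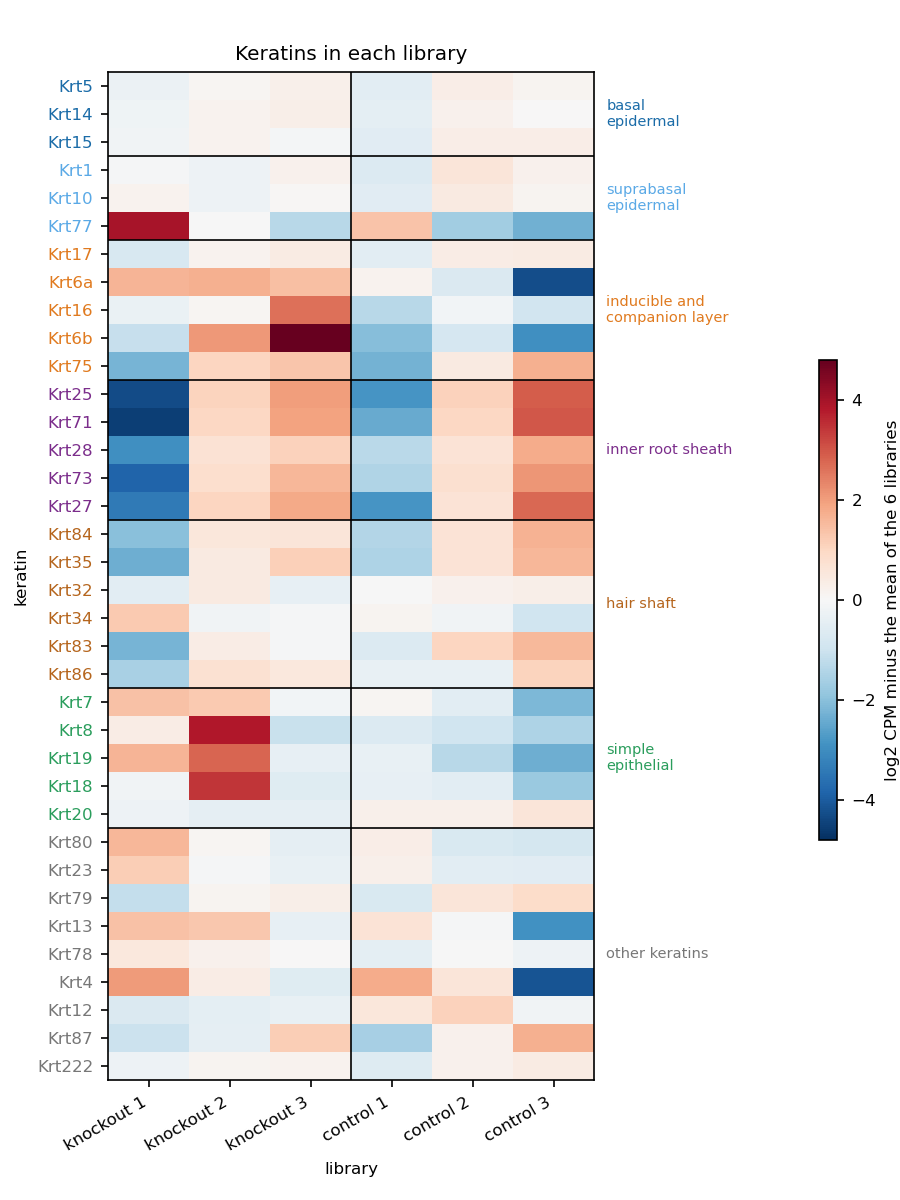
Log2 CPM (prior count 2) of the 36 keratins tested, minus each keratin's mean over the 6 libraries, with libraries in columns and keratins in rows grouped by class. Single dark cells mark Krt77 in knockout 1, Krt8 and Krt18 in knockout 2 and Krt6b in knockout 3, and the inner root sheath block is low in knockout 1 and control 1.

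The basal keratins were at similar levels in both groups. Krt5, the type II chain of basal keratinocytes, stood at 2949, 3849 and 4233 CPM in knockout 1, 2 and 3 and 2535, 4520 and 3935 CPM in control 1, 2 and 3, with a log2 fold change of 0.0054 (SE 0.234, adjusted p = 0.998 in edgeR). Its type I partner Krt14 stood at 1426, 1856 and 2027 CPM in the knockouts and 1191, 1924 and 1700 CPM in the controls, with a log2 fold change of 0.14 (SE 0.205, adjusted p = 0.903 in edgeR). Krt15, a type I chain of basal cells and later of hair follicle stem cells, stood at 586, 735 and 612 CPM in the knockouts and 454, 824 and 821 CPM in the controls, with a log2 fold change of −0.12 (SE 0.238, adjusted p = 0.936 in edgeR). In all 3 genes control 1 was lowest, knockout 1 was next, and the groups overlapped. The 2 partners kept nearly the same ratio in each library: Krt14 was 0.426 to 0.484 times Krt5 in CPM, a span of 0.184 on the log2 scale. Per kilobase of transcript the median level was 1772 CPM for Krt5, 1047 CPM for Krt14 and 396 CPM for Krt15.

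The suprabasal pair Krt1 and Krt10, which replaces Krt5 and Krt14 as cells leave the basal layer, were the most abundant keratins, at a median of 4222 CPM per kilobase for Krt10 and 4114 for Krt1. Krt1 stood at 9209, 8091 and 11007 CPM in knockout 1, 2 and 3 and 6052, 14492 and 10992 CPM in control 1, 2 and 3, with a log2 fold change of −0.16 (SE 0.31, adjusted p = 0.934 in edgeR). Krt10 stood at 9347, 7038 and 8688 CPM in the knockouts and 5611, 11099 and 8994 CPM in the controls, with a log2 fold change of −0.04 (SE 0.25, adjusted p = 0.983 in edgeR). The 3 knockouts lay inside the range of the controls for both genes, since control 1 was the lowest and control 2 the highest library. The ratio of Krt10 to Krt1 ran from 0.766 in control 2 to 1.015 in knockout 1, a span of 0.406 on the log2 scale.

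Krt77 (chromosome 15, 101858731 to 101869706), a type II keratin of suprabasal epidermis in the mouse and of sweat ducts, did not follow this pair. It stood at 1071, 69.3 and 27.8 CPM in knockout 1, 2 and 3 and 183, 21.8 and 14.3 CPM in control 1, 2 and 3. Knockout 1 was 5.86 times the next library, control 1, and these 2 libraries held most of its reads while the 4 others ranged from 14.3 to 69.3 CPM. The log2 fold change of 2.42 (SE 1.74, adjusted p = 0.807 in edgeR) was −0.59 without knockout 1 and 4.43 without control 1. The mean log2 CPM of the 6 basal and suprabasal keratins tested, Krt77 included, differed by 0.29 between the groups (SD within groups 0.28). That difference was 0.087 without knockout 1 and 0.046 without both replicate 1 libraries. Other genes of the cornifying epidermis were also unlike in knockout 1. Lor, which encodes the cornified envelope protein loricrin, stood at 5057, 2463 and 1872 CPM in the knockouts and 2540, 1942 and 1529 CPM in the controls, and Flg, which encodes filaggrin, which bundles keratin filaments, at 504, 2003 and 2025 CPM in the knockouts and 1450, 2194 and 1980 CPM in the controls. Knockout 1 was thus highest for Lor and lowest for Flg. The part of these differences in the Krt77 value was not tested. The 2 other suprabasal keratins were nearly absent: Krt2, of the upper spinous and granular layers, had estimated reads of 4, 1 and 1 in the knockouts and 7, 9 and 7 in the controls, and Krt9, of palm and sole skin, had 2 to 9 reads per library.

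The 3 keratins of stressed and activated epidermis, Krt6a, Krt6b and Krt16, had positive fold changes, of which that of Krt6b was the largest among the 36 keratins. Krt6a (chromosome 15, 101689928 to 101694305), also made by the companion layer between inner and outer root sheath, stood at 153, 161 and 136 CPM in knockout 1, 2 and 3 and 55.2, 30.6 and 2.52 CPM in control 1, 2 and 3. Each of the 3 knockouts lay above each control, and the knockouts were alike (149.9 ± 12.8 CPM, SD, n = 3) while the controls ranged from 2.52 to 55.2 CPM. Its log2 fold change was 2.35 (SE 0.918, adjusted p = 0.671 in edgeR), which does not pass the threshold. It ranged from 1.80 without control 3 to 3.18 without control 1. Since the groups did not overlap, leaving out a single library could not change its direction.

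Krt6b, a close copy of Krt6a 9.63 kb away on chromosome 15, stood at 3.04, 28.4 and 186 CPM in knockout 1, 2 and 3 and 1.53, 3.76 and 0.79 CPM in control 1, 2 and 3. Knockout 3 was 6.57 times the next library, knockout 2, and knockout 1 lay below control 2. The log2 fold change of 5.16 (SE 1.68, adjusted p = 0.559 in edgeR) was 2.95 without knockout 3. DESeq2 called this gene, at a log2 fold change of 5.16 and an adjusted p of 0.0242. It was the single keratin that DESeq2 called, and Krt18 had no adjusted p in DESeq2. In summed reads scaled by library size, the knockouts were 36.5 times the controls (95% exact interval 30.5 to 44.0, counting error only). Transcripts of Krt6a and Krt6b are 92.6% identical over 2184 aligned bases, so the split of reads between them by the estimation is uncertain. The part of that split in the Krt6b values was not tested.

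Krt16, the type I partner induced with Krt6, stood at 23.6, 31.2 and 184 CPM in knockout 1, 2 and 3 and 11.6, 26.8 and 15.4 CPM in control 1, 2 and 3. Knockout 3 was again apart, 5.90 times the next library, and the other knockouts lay close to control 2. The log2 fold change of 2.15 (SE 0.936, adjusted p = 0.687 in edgeR) was 0.61 without knockout 3. The ratio of Krt16 to Krt6a spanned 5.30 log2 units over the libraries and that of Krt16 to Krt6b 4.30, pairs that were added after the values were seen. Krt17, made by the follicle and its early placode, stood at 288, 548 and 642 CPM in the knockouts and 344, 627 and 654 CPM in the controls and had a log2 fold change of −0.14 (SE 0.367, adjusted p = 0.952 in edgeR). Krt75, of the companion layer, ranged from 0.247 to 5.43 CPM, lowest in control 1 and knockout 1, with a log2 fold change of −0.01 (SE 1.12, adjusted p = 0.998 in edgeR). The groups overlapped for Krt16, Krt17 and Krt75.

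**Figure D3:**
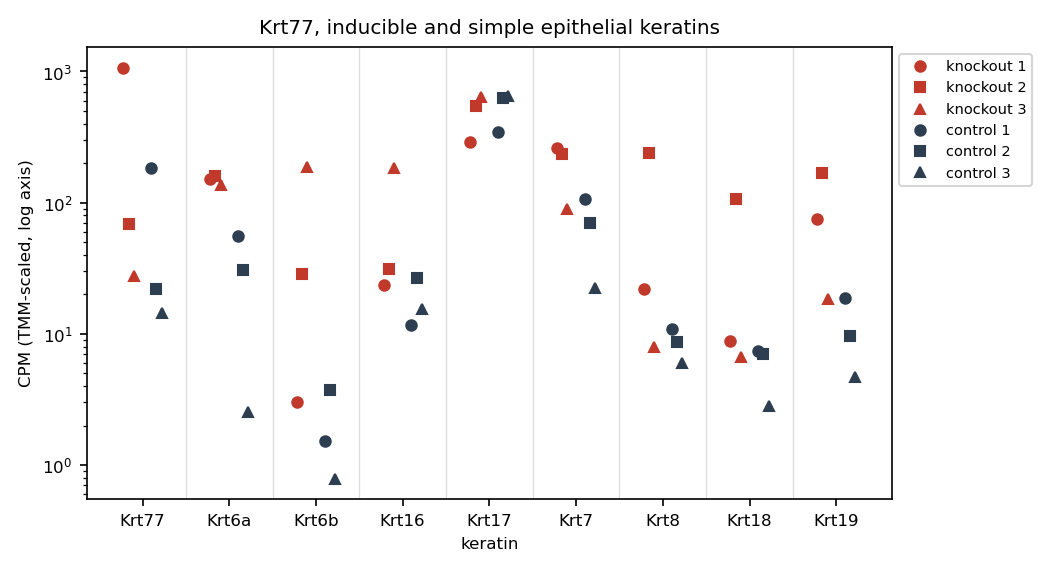
CPM on a log axis of Krt77, Krt6a, Krt6b, Krt16 and Krt17 and of the simple epithelial keratins Krt7, Krt8, Krt18 and Krt19 in each knockout (red) and control (dark) library, 1 point per library. The groups are separated for Krt6a, while 1 knockout library lies far above the rest for Krt77, Krt6b, Krt16, Krt8 and Krt18.

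Of the keratins of single-layered epithelia, Krt8, Krt18 and Krt19 were highest in knockout 2. Krt8, the type II chain of simple epithelia and of the embryonic periderm (chromosome 15, 101996711 to 102004342), stood at 21.9, 241 and 8 CPM in knockout 1, 2 and 3 and 10.9, 8.62 and 5.97 CPM in control 1, 2 and 3. Krt18, its type I partner 23.9 kb away, stood at 8.76, 107 and 6.63 CPM in the knockouts and 7.45, 7.03 and 2.81 CPM in the controls. Knockout 2 was 11.04 times the next library for Krt8 and 12.2 times for Krt18, and the 5 others overlapped between the groups. The log2 fold change of 3.41 (SE 1.39, adjusted p = 0.677 in edgeR) for Krt8 was 0.81 without knockout 2, and that of Krt18, 2.82 (SE 1.28, adjusted p = 0.696 in edgeR), was 0.42 without it. Krt19, a type I chain of simple epithelia, periderm and some follicle cells (chromosome 11, 100140810 to 100145926), stood at 74.9, 168 and 18.6 CPM in the knockouts and 18.8, 9.66 and 4.69 CPM in the controls. Its log2 fold change of 2.98 (SE 0.947, adjusted p = 0.547 in edgeR) was 2.08 without knockout 2, and knockout 3 lay below control 1. Krt7, a type II chain of glands and ducts (chromosome 15, 101412403 to 101427806), stood at 263, 236 and 90.2 CPM in the knockouts and 106, 69.7 and 22.3 CPM in the controls, with a log2 fold change of 1.57 (SE 0.675, adjusted p = 0.687 in edgeR). Knockout 3 lay below control 1, and the groups overlapped for Krt7 as well.

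Krt20, which marks Merkel cells in skin, was lower in the knockout, at estimated reads of 9, 8 and 8 in the knockouts and 14, 14 and 18 in the controls. It reached 10 reads in the 3 controls alone, so that passing the read minimum required it to differ, and its log2 fold change of −0.85 (SE 0.307, adjusted p = 0.564 in edgeR) gives no support for a difference. Krt8, Krt18, Krt19 and Krt20 are all made by Merkel cells, the touch receptors of the epidermis, and the summed level of the Merkel cell list (Atoh1, Isl1, Sox2 and Insm1) was 11, 13.1 and 11.7 CPM in the knockouts and 11.8, 13.5 and 14.4 CPM in the controls. Knockout 2 was not apart for that list. Of its 4 members, 0 were called. Insm1, a transcription factor of neuroendocrine cells and the member with the smallest p, had a log2 fold change of −1.12 (SE 0.343, adjusted p = 0.449 in edgeR). Those of Atoh1, Sox2 and Isl1 were −0.41, −0.13 and 0.15.

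Markers of mesothelium, the simple epithelium that lines the body cavities and is no part of skin, were highest in knockout 2. Of 4 listed genes 3 were tested and 0 called, and all 3 were highest in knockout 2 and lowest in control 3, as Krt8, Krt18 and Krt19 were. Msln, which encodes mesothelin, stood at 36.7, 181 and 8.74 CPM in the knockouts and 22.7, 10.9 and 1.53 CPM in the controls. Upk3b, a uroplakin of mesothelium, stood at 57.6, 75 and 13.4 CPM in the knockouts and 34.9, 14.4 and 2.07 CPM in the controls, and Wt1, a transcription factor of mesothelium, at 1.65, 4.91 and 0.834 CPM in the knockouts and 0.937, 0.644 and 0.543 CPM in the controls. The summed level of the list was 96, 260.4 and 23.2 CPM in the knockouts and 58.7, 26.1 and 4.15 CPM in the controls, while Lrrn4 had 0 to 4 reads per library. Their part in the values of Krt7, Krt8, Krt18 and Krt19 was not tested.

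The inner root sheath keratins varied more than any other class and did so together. Krt25, a type I chain of this layer, stood at 0.206, 12.5 and 23.8 CPM in knockout 1, 2 and 3 and 0.74, 12.6 and 44.8 CPM in control 1, 2 and 3. Krt71, a type II chain whose mutations give wavy coats in mice, stood at 0.155, 11.2 and 21.9 CPM in the knockouts and 0.987, 11.2 and 45 CPM in the controls. Krt28 stood at 1.03, 13.8 and 18.4 CPM in the knockouts and 3.35, 13.3 and 29.1 CPM in the controls, Krt73 at 0.309, 10.01 and 17.4 CPM in the knockouts and 2.07, 9.81 and 25.1 CPM in the controls, and Krt27 ranged from 0.103 CPM in knockout 1 to 14.2 CPM in control 3. In all 5 genes knockout 1 was lowest, control 1 next, knockout 3 second highest and control 3 highest, with knockout 2 and control 2 in between. The summed level of all 7 inner root sheath genes was 2.27, 52 and 89.4 CPM in the knockouts and 7.35, 50.3 and 159 CPM in the controls, and control 3 was 69.9 times knockout 1. In knockout 1 Krt71 and Krt27 were at or below the floor of 3 reads.

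The genotype difference of this class was small beside that spread. All 5 fold changes were negative, from −0.78 for Krt71 to −0.41 for Krt73, with standard errors of 1.10 to 1.56, and their adjusted p in edgeR ran from 0.936 to 0.959. The 5 genes share the libraries and nearly their order, so that their common sign does not amount to 5 separate results. The mean of their log2 CPM differed by −0.78 between the groups against an SD of 2.68 within groups. That difference turned to 0.92 without knockout 1 and to 0.27 without control 3, and was −0.36 with both replicate 1 libraries left out. Of the type I chains of the layer, Krt27 was 0.200 to 0.667 times the type II chain Krt71 in CPM. This ratio spanned 1.74 on the log2 scale. Krt25 was 0.750 to 1.33 times Krt71, a span of 0.830, but this pair was not among those planned. In both ratios the lowest and highest values came from control 1 and knockout 1, where each gene had few reads. Of the members that did not pass, Krt26 had reads of 0, 2 and 9 in the knockouts and 0, 4 and 9 in the controls, with 0 again in knockout 1 and control 1, and Krt72 had 9 and 2 reads in knockout 1 and 2 and 0 in the other libraries.

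**Figure D4:**
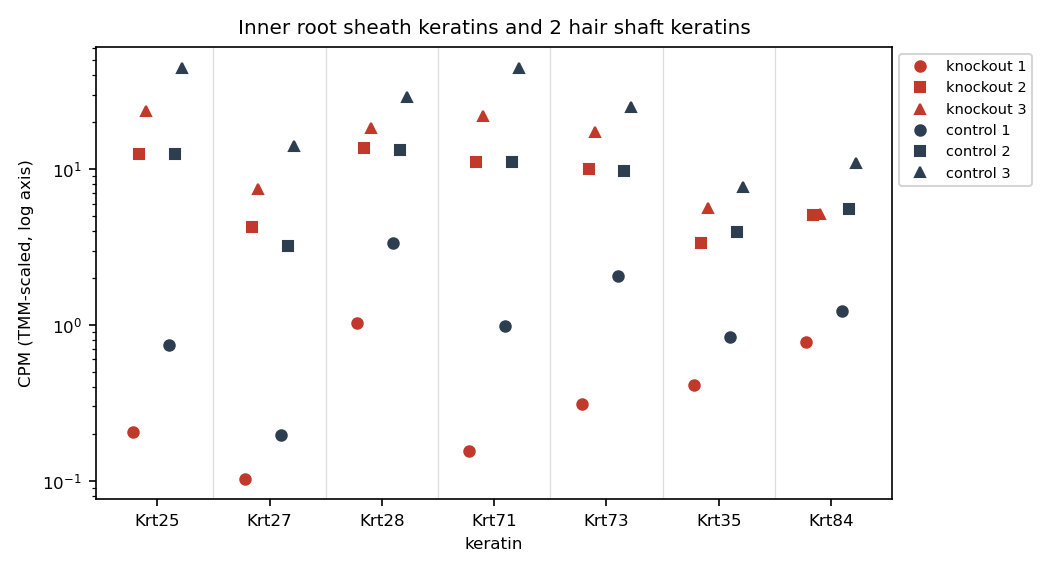
CPM on a log axis of the inner root sheath keratins Krt25, Krt27, Krt28, Krt71 and Krt73 and of the hair shaft keratins Krt35 and Krt84 in each library, 1 point per library. In all 7 genes replicate 1 of each group lies at the bottom and control 3 at the top, and the groups overlap.

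The hair shaft keratins were less abundant, and the 2 most abundant had the same libraries at the bottom and top as the inner root sheath. Krt84, a type II hair keratin, stood at 0.773, 5.06 and 5.15 CPM in knockout 1, 2 and 3 and 1.23, 5.55 and 11 CPM in control 1, 2 and 3. Krt35, the first type I chain of the hair cuticle and matrix, stood at 0.412, 3.37 and 5.64 CPM in the knockouts and 0.839, 3.96 and 7.7 CPM in the controls. Knockout 1 was lowest and control 1 next in both, and control 3 was highest. Their log2 fold changes were −0.69 (SE 0.8998, adjusted p = 0.892 in edgeR) and −0.40 (SE 0.984, adjusted p = 0.946 in edgeR), and without control 3 they were 0.11 and 0.39. Krt32, a type I chain of the cuticle, moved much less, at 1.96, 3.87 and 2.11 CPM in the knockouts and 2.81, 3.27 and 3.46 CPM in the controls, with a log2 fold change of −0.26 (SE 0.29, adjusted p = 0.87 in edgeR).

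Krt34, a cortex keratin, ran the other way, at 1.49, 0.496 and 0.54 CPM in the knockouts and 0.641, 0.495 and 0.247 CPM in the controls. Knockout 1 was highest, and the log2 fold change of 0.86 (SE 0.563, adjusted p = 0.777 in edgeR) was 0.17 without it. Krt83 (log2 fold change −1.44, SE 0.919, adjusted p = 0.773 in edgeR) and Krt86 (−0.10, SE 0.794, adjusted p = 0.986 in edgeR) had 0 to 26.5 and 1 to 17.2 estimated reads per library. Krt83 passed because 9.58 reads in 1 library were rounded up, and Krt81, with reads of 1, 0 and 6.25 in the knockouts and 1.08, 16 and 23.5 in the controls, stayed just outside. Krt31 had 3.04 to 18.8 reads per library, Krt33a 1.05 to 10.07, Krt33b 1 to 5.48, Krt36 1.24 to 14 and Krt82 0 to 9, and none of these 5 was tested. Transcripts of Krt81, Krt83, Krt86 and Krt87 are 94.2 to 95.2% identical, as are those of Krt31, Krt33a, Krt33b and Krt34 at 93.2 to 95.1%, so that the values of single members are uncertain. Of the 12 hair shaft keratins 6 were tested, and the summed level of all 12 was 6.13, 15.2 and 15.7 CPM in the knockouts and 6.96, 15.8 and 26.8 CPM in the controls. The mean log2 CPM of the 6 tested differed by −0.38 between the groups (SD within groups 0.836), and by 0.14 without knockout 1.

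Genes that control the hair matrix varied less between libraries than the inner root sheath keratins, though more than most genes. Their median SD within groups was 0.48, against 2.82 for those keratins and 0.140 over all genes. All 10 lay above the median of all genes. Of 10 listed regulators, 10 were tested and 0 called, and in 6 the 2 lowest libraries were knockout 1 and control 1. Hoxc13, a homeobox factor that drives hair keratin genes, stood at 5.15, 9.02 and 13.3 CPM in the knockouts and 5.62, 15.3 and 18.6 CPM in the controls. Shh, the ligand that drives follicle downgrowth, stood at 21.9, 34.8 and 41.2 CPM in the knockouts and 22.2, 38.2 and 45 CPM in the controls, and Msx2, a homeobox factor of the matrix, at 6.24, 12.3 and 12.1 CPM in the knockouts and 4.64, 11 and 13.1 CPM in the controls. Foxn1, also listed, stood at 16.4, 12.8 and 16.25 CPM in the knockouts and 9.62, 22.2 and 16.04 CPM in the controls. Its 2 lowest libraries were control 1 and knockout 2. Lgr5, a receptor of follicle progenitors and the regulator with the smallest p, had a log2 fold change of 0.30 (SE 0.259, adjusted p = 0.829 in edgeR). The summed level of the 10 varied 1.79-fold over the libraries, against 69.9-fold for the inner root sheath keratins, whose sum in knockout 1 was 2.27 CPM. Among 5 listed structural proteins of hair, 4 were tested and 0 called. Tchh, which encodes trichohyalin, the granule protein of the inner root sheath, stood at 17.9, 14.9 and 25.3 CPM in the knockouts and 10.9, 18.1 and 30.1 CPM in the controls. Control 3 and knockout 3 were highest for Tchh, as for the inner root sheath keratins, while knockout 1 was not among the 2 lowest libraries. Tgm3, a transglutaminase of hair and epidermis, had a log2 fold change of −0.51 (SE 0.347, adjusted p = 0.792 in edgeR).

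Melanocytes, which move into growing follicles, gave a like order. All 5 listed melanocyte genes had knockout 1 and control 1 as their 2 lowest libraries, with 0 called. Dct, a melanin synthesis enzyme of melanoblasts, stood at 34, 83.5 and 97.9 CPM in the knockouts and 55.6, 91.8 and 134 CPM in the controls, and Tyr, the tyrosinase gene, had a log2 fold change of −0.25 (SE 0.266, adjusted p = 0.861 in edgeR). The summed level of the list was 73.1, 166 and 182 CPM in the knockouts and 104, 171 and 250.2 CPM in the controls. The part of these genes in the hair keratin values was not tested.

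The keratin-associated proteins, the matrix in which hair keratins are embedded, were almost silent. Of 21 genes 1 was tested, Krtap3-2, at 4.33, 1.64 and 1.77 CPM in the knockouts and 3.01, 2.13 and 2.91 CPM in the controls (log2 fold change −0.06, SE 0.400, adjusted p in edgeR = 0.981). Krtap13 was an exception and was singled out after its values were seen. It stood at 686 CPM in knockout 1, at 1.43 CPM in control 1 and at 0 to 0.149 CPM in the 4 other libraries. It reached 10 reads in 2 libraries and was therefore not tested.

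The remaining 16 keratins had no list of their own, and 9 of them were tested. Krt80, a type II chain of differentiating epithelia, stood at 597, 213 and 147 CPM in the knockouts and 247, 118 and 111 CPM in the controls, and Krt23, an epithelial type I chain, at 287, 122 and 98.7 CPM in the knockouts and 147, 88 and 86.5 CPM in the controls. Knockout 1 was highest and control 1 next in both, with log2 fold changes of 1.007 (SE 0.627, adjusted p = 0.773 in edgeR) and 0.66 (SE 0.463, adjusted p = 0.801 in edgeR) that were 0.18 and 0.039 without knockout 1. Krt13 and Krt4, the pair of moist stratified epithelia such as mouth and oesophagus, were lowest in control 3. Krt13 stood at 193, 179 and 55.2 CPM in the knockouts and 115, 71.1 and 9.63 CPM in the controls and Krt4 at 39.2, 12.3 and 6.38 CPM in the knockouts and 32.9, 14.2 and 0.444 CPM in the controls. The log2 fold change of 1.13 (SE 0.926, adjusted p = 0.826 in edgeR) of Krt13 was 0.61 without control 3, and that of Krt4, 0.28 (SE 1.26, adjusted p = 0.974 in edgeR), was −0.76 without knockout 1. Krt79, made by cells that open the hair canal and by sebaceous ducts, stood at 44.8, 108 and 119 CPM in the knockouts and 58.8, 146 and 183 CPM in the controls, low in knockout 1 and control 1, with a log2 fold change of −0.51 (SE 0.534, adjusted p = 0.864 in edgeR).

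Krt78 and Krt12 had the smallest p of all keratins. Krt78, a type II chain of stratified epithelia (chromosome 15, 101946001 to 101996624), stood at 87.5, 70.8 and 63.5 CPM in the knockouts and 44.8, 60.8 and 52.3 CPM in the controls. Each knockout lay above each control, and the difference was small, a log2 fold change of 0.49 (SE 0.151, adjusted p = 0.477 in edgeR). Krt12, best known as the type I chain of the corneal epithelium (chromosome 11, 99415664 to 99422593), stood at 1.29, 1.54 and 1.67 CPM in the knockouts and 3.21, 4.71 and 1.93 CPM in the controls. Each knockout lay below each control. The summed knockout reads, scaled by library size, were 0.458 times those of the controls (95% exact interval 0.353 to 0.590, counting error only). The log2 fold change of Krt12 was −1.13 (SE 0.341, adjusted p = 0.449 in edgeR). Neither passed the threshold. Since the groups did not overlap in either gene, leaving out a single library could not change the direction. Krt222 and Krt87 had log2 fold changes of −0.013 (SE 0.360) and −0.46 (SE 0.976) and overlapped between the groups. The 7 others of this class, Krt24, Krt39, Krt40, Krt42, Krt76, Krt88 and Krt90, had 0 to 5.02 reads per library.

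**Figure D5:**
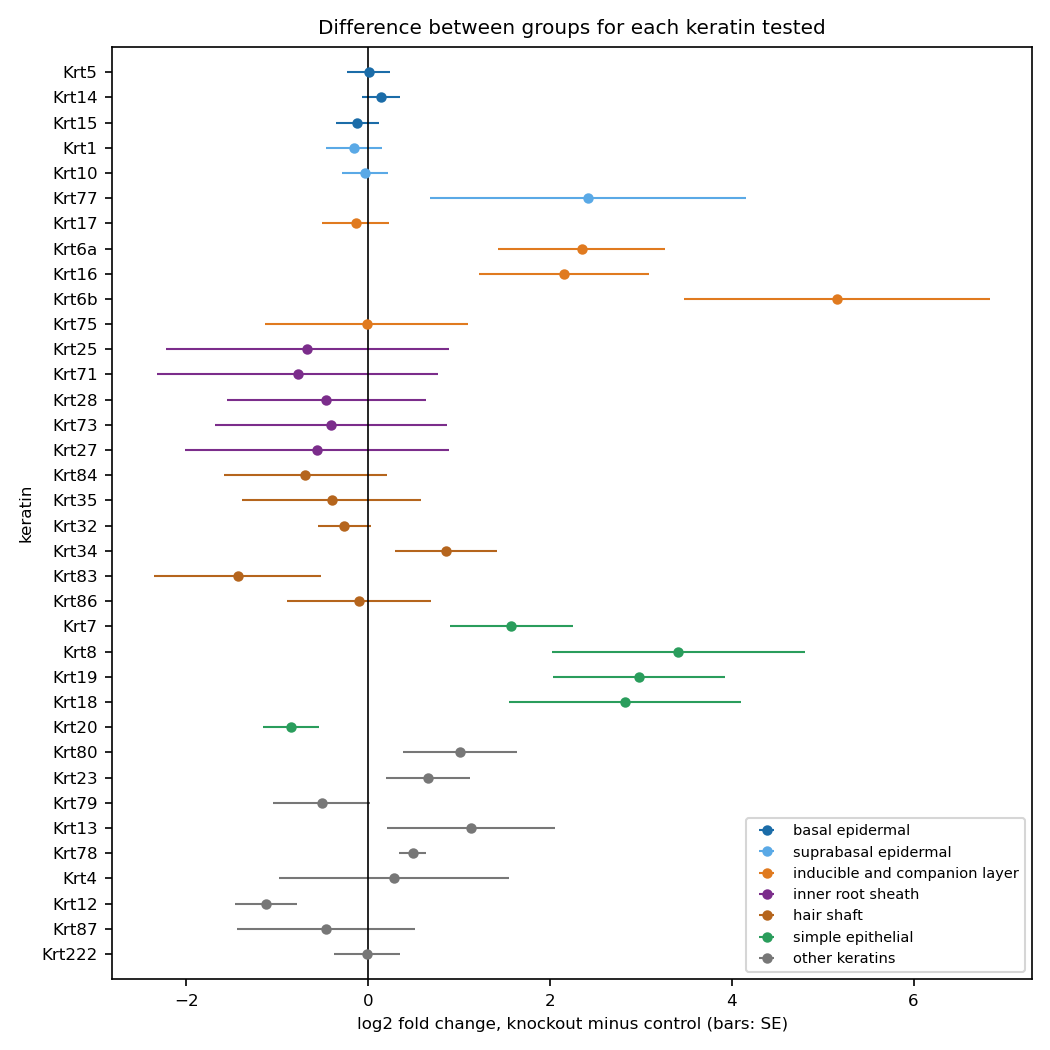
Log2 fold change (knockout minus control, horizontal axis) with its SE for each of the 36 keratins tested, grouped and coloured by class. The values for Krt6b, Krt8, Krt19 and Krt18 are the largest, and 0 of the 36 passed an edgeR adjusted p of 0.05.

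Genes that anchor keratins or regulate epidermis gave few differences of their own. Of 17 desmosome and keratin linker genes, 17 were tested, 0 were called, and 14 fold changes were positive (median 0.18, against 0.0038 over all genes). Their mean log2 CPM was 6.94, 6.92 and 6.93 in the knockouts and 6.30, 6.98 and 6.84 in the controls. Control 1 was thus lowest, and controls 2 and 3 lay close to the knockouts. These genes share the libraries, so that their common sign does not amount to separate results. Ppl, which encodes the cornified envelope linker periplakin, stood at 721, 500.3 and 429.6 CPM in the knockouts and 357, 407 and 386 CPM in the controls (log2 fold change 0.52, SE 0.188, adjusted p in edgeR = 0.581). Dsc2, which encodes the desmosomal cadherin desmocollin 2, stood at 9.59, 21 and 8.1 CPM in the knockouts and 6.86, 6.98 and 6.66 CPM in the controls (log2 fold change 0.91, SE 0.363, adjusted p in edgeR = 0.643). In both genes each knockout lay above each control, and Dsc2 was highest in knockout 2. They were the 2 of 17 genes whose groups did not overlap, a share near the 13.8% of all genes. All 9 epidermal regulators, among them Trp63, were tested with 0 called, and Grhl3, a factor of barrier formation, had a log2 fold change of 0.47 (SE 0.313, adjusted p = 0.782 in edgeR). The list of epidermal genes that are not keratins had 8 members tested and 0 called, with Lor at 0.64 (SE 0.400, adjusted p = 0.767 in edgeR). Fibroblast genes, of which Col1a1 stood at a log2 fold change of 0.09 (SE 0.131, adjusted p = 0.903 in edgeR), had a median SD within groups of 0.147, close to that of all genes. In the lists of sebaceous gland, skeletal muscle, endothelium and leukocytes, 0 of 3, 6, 4 and 4 genes tested were called.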

How the data were processed

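The authors deposited 1 table per library with 1 estimated count of reads per gene (an expected count, per the file headers), not normalized, keyed by gene number and symbol. Tools listed in the submitters' processing notes, with no role, are RSEM 1.2.12, Bowtie2 2.2.5 and HISAT2 2.0.4, with the build GRCm38.p6. Whether counting used strand is not stated in these sources. In 36 of 53 keratins a value was more than 0.001 from a whole number, since such estimates share reads between similar transcripts.

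Counts were rounded, genes with 10 or more in 3 or more libraries were kept, and 3 knockout libraries were compared with 3 control libraries by edgeR 4.0.16 (R 4.3.3; TMM, robust quasi-likelihood F test, Benjamini-Hochberg over all 15086 genes). The SE is the absolute log2 fold change divided by the square root of F. The fit was tested on simulated data. Class means are log2 CPM with prior count 2. Intervals are exact (Clopper-Pearson, 95%) and cover counting error only, since PCR reads without molecular identifiers are not independent molecules. Motifs TATAAA and CTTTGA (or TCAAAG) were searched in the RefSeq promoter table. Transcripts of at least 85% identity over 500 bases (GENCODE) were taken as similar. Besides the groups named above, these were Krt25 with Krt27 (86.9%) and Krt5 with Krt6a (87.6%) and Krt6b (87.7%). Krt14 was similar to Krt16 (87.4%), Krt17 (89.4%) and Krt42 (85.4%). How far reads were shared between these was not tested.

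Values in each library are given for the 4 most abundant members of each class and the 6 keratins with the smallest p, for Tie1 and for up to 3 genes of other lists. Flg, Hoxc13, Shh, Msx2, Foxn1, Tchh, Dct and Krtap13 were added after their values were seen. The members and lists were chosen with earlier results of these data known. Alternatives were RLE and upper-quartile scaling, scaling without keratin reads, filterByExpr, no filter, DESeq2 1.42.0, limma-voom (3.58.1), a fit that was not robust, a replicate block, a prior count of 0.5, and leaving out libraries.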

Additional observations from a re-analysis of the deposited data

How the results depend on the processing

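The count of keratins called, 0 of 36, was 1 with DESeq2 (Krt6b) and 1 with the replicate block (Krt7, log2 fold change 1.69, adjusted p = 0.0290 in edgeR), and 0 under the other alternatives run. The correlations of same-numbered deviations were 0.41, 0.0382 and 0.26, so that the replicate numbers did not pair all the samples. Knockout 1 correlated best with control 1 and knockout 3 with control 3, but knockout 2 also with control 3 (0.189). A batch shared by same-numbered libraries was not tested. The count over all genes, 24, was 38 with no filter, 212 with DESeq2, 54 with the replicate block, 136 without both replicate 1 libraries and 3 to 15 without 1 library. Of 575 keratin fold changes under alternatives, 530 kept their sign and side of the threshold. Krt18 in DESeq2, which had no adjusted p, is counted among these as not called. A further 43, in 19 keratins, changed sign, and their largest absolute value as reported was 2.42 (Krt77). The cause was not tested. The class differences changed sign in the inner root sheath without knockout 1 (0.92) and without control 3 (0.27), and in the hair shaft without knockout 1 (0.14). Krt5 was −0.0193 with upper-quartile scaling, −0.0020 with no filter and −0.0650 without both replicate 1 libraries, where Krt86 was 0.12 and Grhl3 −0.0533. With limma-voom Krt75 was 0.12, Krt222 0.0485 and Krt10 0.00998, and with the replicate block they were 0.0736, 0.0088 and 0.0085. Leaving out 1 library at a time gave −0.0339 to 0.28 for Krt14, −0.35 to 0.0068 for Krt15, −0.20 to 0.18 for Krt5, −0.43 to 0.14 for Krt1, −0.27 to 0.19 for Krt10, −0.59 to 4.43 for Krt77, −0.38 to 0.14 for Krt17, −0.55 to 1.09 for Krt75, −1.60 to 0.86 for Krt25, −1.41 to 1.201 for Krt27, −1.04 to 0.40 for Krt28, −1.74 to 0.86 for Krt71, −1.25 to 0.63 for Krt73, −1.13 to 0.39 for Krt35, −1.17 to 0.11 for Krt84, −0.56 to 0.73 for Krt86, −0.28 to 0.21 for Krt222, −0.76 to 1.39 for Krt4, −1.56 to 0.76 for Krt87 and −0.66 to 0.18 for Krtap3-2. Depth limits the 17 keratins that were not tested and single members of near-identical groups.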

Other observations

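Libraries that stood apart for a keratin also stood apart for other genes, in numbers that differed widely, and the examples here were chosen after the values were seen. In knockout 1, 110 of the 15086 genes lay more than 1 log2 unit above the next library. Among them was Gpx3, which encodes a secreted glutathione peroxidase, at 498.6 CPM against 22.0 to 104 CPM elsewhere. Sprr3, a cornified envelope protein of moist stratified epithelia, reached 38.1 CPM in knockout 1, followed by control 1 with 8.09 CPM, against 0.296 to 4.76 CPM in the 4 others, an order shared with Krt77.

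In knockout 2, 39 genes stood apart. Muc16, a membrane mucin of mesothelium and other simple epithelia, was at 136 CPM against 0.0987 to 1.65 CPM in the other libraries, and Cldn3, a tight junction protein of simple epithelia, at 22.9 CPM against 0.294 to 1.39 CPM. These are the libraries and the direction of Krt8 and Krt18.

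In knockout 3, 11 genes stood apart, 2 of them Krt6b and Krt16. S100a9, which encodes a calcium-binding protein of neutrophils and of activated keratinocytes, was at 12.8 CPM against 0.876 to 3.16 CPM, and S100a8, its partner, at 5.30 CPM against 0.515 to 1.58 CPM. Sprr2a1, a cornified envelope precursor, was at 131 CPM against 26.4 to 39.7 CPM. No gene stood apart in this way in control 2, and 20 did in control 1, with 0 keratins among them. In control 3, which stood apart for Krt71, 3 genes did so, Krt71 included.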
